A study of Saccharomyces cerevisiae with 2 samples.

Results

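Peroxins are the proteins, named Pex, that build and maintain peroxisomes, and the peroxisomal beta-oxidation genes encode the enzymes and transporters that those organelles hold. The genes were taken by symbol, as every S. cerevisiae gene named PEX with a number plus POX1, FOX2, POT1, PXA1, PXA2, FAA2, CTA1, ECI1, DCI1, SPS19, ANT1, TES1, IDP3 and INP1. The annotation lists 43 such genes, and 39 of them had a named probe set, out of 5449 S. cerevisiae genes measured. The 39 were 25 of 29 annotated peroxins, 13 enzymes and transporters, and INP1, which acts in peroxisome inheritance and belongs to neither class. The other 4 were not analysed here. The rule used names and no measured value.

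Transcripts were measured in a-type cells of budding yeast, in 1 culture treated with alpha factor, the mating pheromone of alpha cells, at 50 ng/ml for 3 hours, and in 1 mock-treated culture given no alpha factor. Both cultures were of the S288c-derived strain R276, with the genotype MATa ura3Δ0 leu2Δ0 his3Δ1 met15Δ0 bar1Δ::KanMX, so the mock culture also lacks BAR1, whose product is a secreted alpha-factor protease. The treated culture grew in the rich medium YPD at 30°C, and the sources used here do not state the medium and time of the mock culture. Each RNA was read on 1 single-colour Affymetrix array (Yeast 2.0), whose probe sets cover S. pombe, a fission yeast, as well. There were no replicates, so no ratio below has an error or a test, and its precision is limited by the number of arrays.

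In S. cerevisiae, fatty acids are degraded in peroxisomes. Matrix enzymes are made in the cytosol and imported by soluble receptors that dock at the membrane, release their cargo and are then recycled. Most genes of the pathway are known to be repressed by glucose and induced by oleate through the transcription factors Oaf1, Pip2 and Adr1. Other peroxins insert membrane proteins or set the number and size of the organelles.

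Values are log2 expression values as deposited. A gene's ratio is its value in the alpha-factor array minus its value in the mock array, and the calls higher and lower stand for a log2 ratio of at least 1 in size, that is 2-fold, in a gene above background in at least 1 array. Background was the 95th percentile of the S. pombe probe sets, 5.49 in the alpha-factor array and 5.50 in the mock array. The log2 ratios of these 1746 probe sets had an SD of 0.186, which describes signal near background and not the spread between cultures. BAR1 was at 3.63 in the alpha-factor array and 3.83 in the mock array, below background in both. The other 6 of 7 a-specific genes were above background in both arrays, with STE2, the alpha-factor receptor, at 14.25 and 13.72. Being above background does not set them apart, since 5337 of all 5449 genes were above it in at least 1 array. The 4 alpha-specific genes measured were above it in both arrays as well. MF(ALPHA)1, from which alpha cells make most of their pheromone, was near background at 5.93 with alpha factor and 5.85 in the mock array. Of the other alpha-specific genes, STE3 was at 9.49 with alpha factor and 7.74 in the mock array, MF(ALPHA)2 at 8.64 and 6.36, and SAG1 at 9.91 and 9.53. FUS1, a cell fusion gene induced by pheromone, was at 13.85 with alpha factor and 11.12 in the mock array. The 8 probe sets of 25S ribosomal RNA had log2 ratios from -5.20 to 0.01, with a median of -0.85. The 8 S. cerevisiae probe sets of 18S ribosomal RNA had log2 ratios from -1.81 to -0.33. The part of these differences in the ratios below was not tested.

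Of the 39 peroxisomal genes, 36 stayed within 2-fold between the cultures, and those that passed the 2-fold rule lay on the higher side. Of 39 genes, 3 were 2-fold or more higher with alpha factor, where 5.51% of all 5337 genes above background were, and 0 were 2-fold or more lower, where 3.78% of all genes were. The 3 were PEX34 and PEX29, which act in the control of peroxisome number and size, and POT1, the thiolase of beta-oxidation. POT1 was below background in the mock array. Its bound, the alpha-factor value over the mock background level, was 1.98-fold and has no error. With mock values raised to background, 2 genes, PEX34 and PEX29, remained past the rule. A count of 3 or 2 in 39 is close to the share among all genes, and so is not a result about this group. The median log2 ratio of the 39 was 0.02, against -0.03 over all genes above background. At 1.5-fold, 5 were higher, where 12.1% of all genes were, and 1 was lower, where 10.7% were. The 2 added on the higher side were PEX18 and SPS19, and the lower gene was PXA1.

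**Figure D1:**
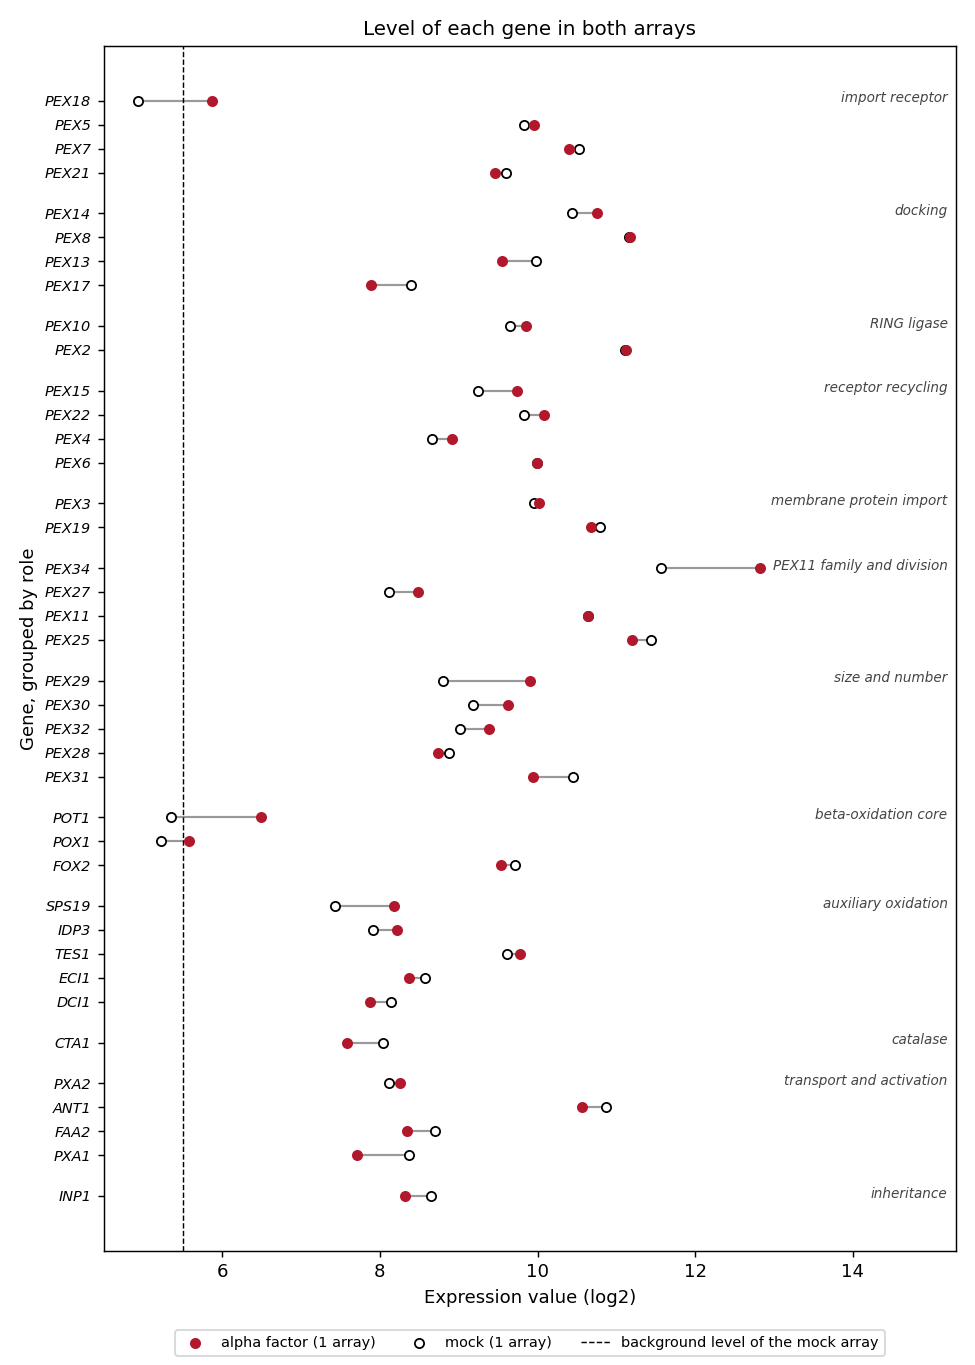
Expression values (log2, horizontal axis) of the 39 genes in the alpha-factor array (filled points) and the mock array (open points), grouped by role, with a line joining the 2 values of a gene and a dashed line at the background level of the mock array, 5.50. PEX34, PEX29 and POT1 have the longest lines to the right, and PEX18, POT1 and POX1 have mock values left of the background line.

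The peroxins as a class lay slightly above the enzymes and transporters. The median log2 ratio of 25 peroxins was 0.06 and that of 13 enzymes and transporters was -0.17, a difference of 0.23. In level, the median peroxin was at 9.94 with alpha factor and 9.83 in the mock array. The median of the enzymes and transporters was 8.22 and 8.15, and that of all genes above background 10.69 and 10.71, in the same order. The enzymes and transporters were thus the dimmer class. The lower and upper quartiles were -0.12 and 0.37 for the peroxins, -0.30 and 0.30 for the enzymes and transporters, and -0.32 and 0.26 for all genes above background. The 2 classes therefore overlapped over most of their range, and their difference is small beside the spread within each. A ratio above 1 was found for 16 of 25 peroxins and for 6 of 13 enzymes and transporters, where 45.8% of all genes had such a ratio. The ratios of the peroxins ran from -0.51 to 1.25 and those of the enzymes and transporters from -0.65 to 1.14.

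**Figure D2:**
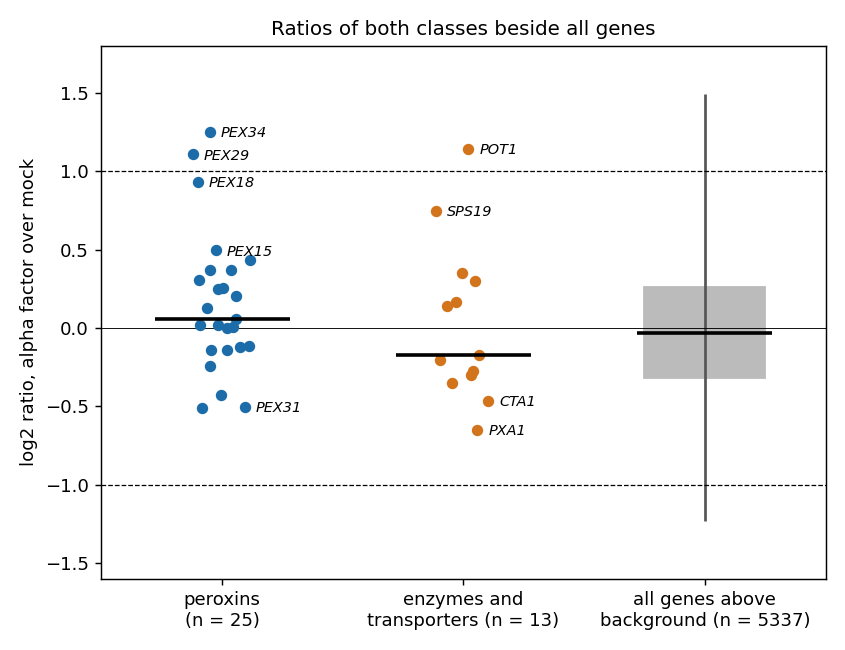
Log2 ratio of alpha factor over mock (vertical axis) for each of 25 peroxins and 13 enzymes and transporters (points) with class medians (thick lines), beside the median, the quartiles (box) and the central 95% (line) of 5337 genes above background. The class medians are 0.06 and -0.17, and dashed lines mark the 2-fold rule, which PEX34 and PEX29 pass, as does the measured value of POT1, whose bound is 1.98-fold.

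The largest ratio belonged to a peroxin of the division group. PEX34 encodes a peroxisomal membrane protein that works with the Pex11 family to set peroxisome number. It was at 12.82 in the alpha-factor array and 11.56 in the mock array, 2.38-fold higher, and 3.64% of all genes above background had a higher ratio. PEX11 itself, the main promoter of peroxisome elongation and division, was at 10.64 in both arrays, with a log2 ratio of 0.00. PEX25, a Pex11-family protein that acts in the formation of new peroxisomes, was at 11.20 with alpha factor and 11.44 in the mock array. PEX27, its paralogue, was at 8.48 with alpha factor and 8.11 in the mock array, so the log2 ratios of the paralogues, -0.24 and 0.37, had opposite signs. In this group PEX34 thus stood apart from the 3 Pex11-family genes, of which PEX27 had the largest ratio at 1.29-fold.

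The membrane peroxins PEX28 to PEX32 control the size, number and distribution of peroxisomes, and their ratios did not share a direction. PEX29 was at 9.91 with alpha factor and 8.80 in the mock array, 2.16-fold higher, with 4.67% of genes above background showing a higher ratio. PEX28, its paralogue, was at 8.73 with alpha factor and 8.87 in the mock array, and the log2 ratio of PEX29 exceeded that of PEX28 by 1.25. PEX30, which shapes the membrane of the endoplasmic reticulum where peroxisomes form, was at 9.62 with alpha factor and 9.19 in the mock array. Its paralogue PEX32 was at 9.39 and 9.02 in the same order. PEX31, the other paralogue of PEX30, was at 9.94 with alpha factor and 10.44 in the mock array, a log2 ratio of -0.50 against 0.43 for PEX30.

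**Figure D3:**
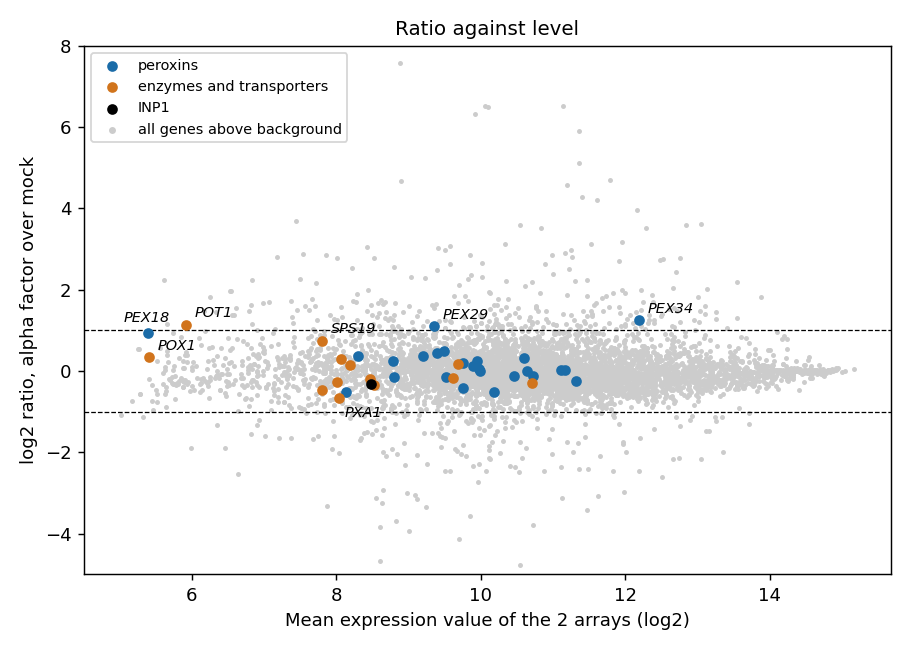
Log2 ratio of alpha factor over mock (vertical axis) against the mean expression value of the 2 arrays (log2, horizontal axis) for peroxins, enzymes and transporters, INP1, and all 5337 genes above background. PEX34 and PEX29 pass the dashed 2-fold line at levels well above background, and the measured value of POT1 does so near the dim end of the scale, where its bound is 1.98-fold.

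Among the import receptors and coreceptors, PEX18 had the largest ratio, from values close to background. PEX5, the receptor for proteins with the C-terminal peroxisomal signal, was at 9.95 with alpha factor and 9.83 in the mock array. PEX7, the receptor for the N-terminal signal carried by the thiolase Pot1, was at 10.40 with alpha factor and 10.52 in the mock array. Pex7 needs a coreceptor, which is Pex18 or its paralogue Pex21. PEX18 was at 5.87 with alpha factor and 4.94 in the mock array, where it was below background, and its bound was 1.29-fold. PEX21 was at 9.45 with alpha factor and 9.59 in the mock array. The measured log2 ratios of the coreceptor genes were thus 0.93 for PEX18 and -0.14 for PEX21, and the first rests on a value close to background.

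The docking and recycling machinery stayed within 2-fold throughout, as did 4841 of all 5337 genes above background, so this does not set it apart. Of the docking proteins, PEX14 was at 10.75 with alpha factor and 10.44 in the mock array. PEX13 was at 9.55 with alpha factor and 9.98 in the mock array, and PEX17 at 7.88 and 8.39, so the 3 subunits had log2 ratios of 0.31, -0.43 and -0.51. PEX8, which links the docking complex to the ubiquitin ligases inside the organelle, was at 11.17 with alpha factor and 11.16 in the mock array. Members of 1 complex therefore differed in sign, at sizes below 1.5-fold.

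The ubiquitin ligases PEX2 and PEX10, which modify the receptors for recycling, had log2 ratios of 0.02 and 0.20. Of 4 measured genes of receptor extraction, 3 had a ratio above 1, where 45.8% of all genes above background did, and PEX6 had exactly 1. The count is too small to set the group apart. PEX15, the membrane anchor of the ATPase Pex6, was at 9.74 with alpha factor and 9.25 in the mock array, a log2 ratio of 0.49. PEX22, the anchor of the ubiquitin-conjugating enzyme Pex4, had a log2 ratio of 0.26, and PEX4 had 0.25. PEX6 had the same deposited value in both arrays, 9.99, and is 1 of 287 probe sets of any kind in the table with equal values. Among the 5337 S. cerevisiae genes above background, 11 had equal values. PEX3 and PEX19, which insert peroxisomal membrane proteins, had log2 ratios of 0.06 and -0.11. INP1, which with Pex3 holds peroxisomes in the mother cell, was at 8.32 with alpha factor and 8.65 in the mock array.

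The core enzymes of beta-oxidation were dim or nearly equal between the cultures. POT1, the thiolase that releases acetyl-CoA in the last step, was at 6.49 with alpha factor and 5.35 in the mock array, a measured log2 ratio of 1.14. Its mock value was below background, and its bound was 1.98-fold, just short of the rule. POX1, the acyl-CoA oxidase of the first step, was at 5.58 with alpha factor and 5.23 in the mock array, below background. Its bound was 1.06-fold, which with 1 array each does not show that the gene was higher. FOX2, the enzyme of the middle steps, was well above background, at 9.54 with alpha factor and 9.71 in the mock array. The 3 enzymes of the spiral thus had log2 ratios of 1.14, 0.35 and -0.17, and those of the first and last step rest on values near background.

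Auxiliary enzymes prepare unsaturated fatty acids for the spiral. SPS19, a dienoyl-CoA reductase, was at 8.18 with alpha factor and 7.43 in the mock array, 1.68-fold higher. IDP3, the isocitrate dehydrogenase that supplies this reductase with NADPH, was at 8.22 with alpha factor and 7.92 in the mock array. The enoyl-CoA isomerase gene ECI1 and its paralogue DCI1 had log2 ratios of -0.21 and -0.28, which differ by 0.07. TES1, an acyl-CoA thioesterase, was at 9.77 with alpha factor and 9.61 in the mock array. The reductase and its NADPH source therefore lay above the isomerases. No member of this group passed 2-fold, and 4841 of all 5337 genes above background were within 2-fold too.

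Of 4 genes of substrate entry, 3 had a ratio below 1, as had 2879 of all 5337 genes above background. The count is too small to set the group apart. PXA1 and PXA2 encode the subunits of the ABC transporter that brings long-chain acyl-CoA into the organelle. PXA1 was at 7.71 with alpha factor and 8.37 in the mock array, 1.57-fold lower and the lowest ratio of the 39 genes. PXA2 was at 8.26 with alpha factor and 8.12 in the mock array, so the log2 ratios of the subunits differed by -0.79 (PXA1 minus PXA2). FAA2, the peroxisomal acyl-CoA synthetase, had a log2 ratio of -0.35, and ANT1, the ATP carrier of the peroxisomal membrane, had -0.30. CTA1, the peroxisomal catalase that removes the hydrogen peroxide made by Pox1, was at 7.58 with alpha factor and 8.04 in the mock array. CTT1, the cytosolic catalase, named after its value was seen, was at 8.43 with alpha factor and 8.37 in the mock array.

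Gene position was a feature that the rule did not use, and the comparison of neighbours was chosen after values were seen. PEX34 lies next to KAR4, a transcription factor gene of the pheromone response that acts in nuclear fusion, and the systematic names YCL056C and YCL055W place the genes back to back on opposite strands. KAR4 was at 14.15 with alpha factor and 11.38 in the mock array, 6.86-fold higher. PEX29 lies in the same way next to DIG2, which encodes an inhibitor of the mating transcription factor Ste12, with the systematic names YDR479C and YDR480W. DIG2 was at 11.81 with alpha factor and 9.62 in the mock array, 4.56-fold higher. Each of the 2 peroxin genes past 2-fold thus lies back to back with a gene of the mating response whose ratio was larger than its own.

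Of the 39 genes, 22 had a measured divergent neighbour, a gene that starts next to it and runs away from it. For 2 of these 22 the neighbour was 2-fold or more higher, and they were PEX34 and PEX29. POT1 lies back to back with BNR1, a formin gene, whose log2 ratio was -0.50. For 2 the neighbour was 2-fold or more lower. These were PEX2, beside the oligopeptide transporter gene OPT1 with a log2 ratio of -1.76, and PEX28, beside SKG6 with -1.23, while PEX2 and PEX28 had log2 ratios of 0.02 and -0.14.

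Over the whole table, 28.3% of 113 genes whose divergent neighbour was 2-fold or more higher were themselves 2-fold or more higher, against 4.57% of all 2517 genes with a measured divergent neighbour. The 113 include PEX34, PEX29, KAR4 and DIG2, since a pair in which both genes are higher counts from both sides. Among genes whose 3' ends face each other, 4.62% of 130 genes with a higher neighbour were higher, against 5.02% of all 2629. For genes next to each other on the same strand, the counts are of gene and neighbour pairs, so a gene flanked on both sides enters for each. The gene was higher in 19.0% of 284 pairs with a higher neighbour, against 6.17% of all 4697 pairs. A raised share was thus not particular to back-to-back genes. PXA2 has a neighbour whose 3' end faces its own, HYM1, a gene of polarised growth that was 5.71-fold higher, and its own log2 ratio was 0.14. PEX32 is another, beside the chaperone gene SSE2 at 2.07-fold higher, with a log2 ratio of 0.37. CTA1 lies on the same strand as RMD5, a ubiquitin ligase subunit gene that was 2.10-fold higher, and its own log2 ratio was -0.46. These shares describe 2 arrays, and the part of the neighbours in the ratios of PEX34 and PEX29 was not tested.

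**Figure D4:**
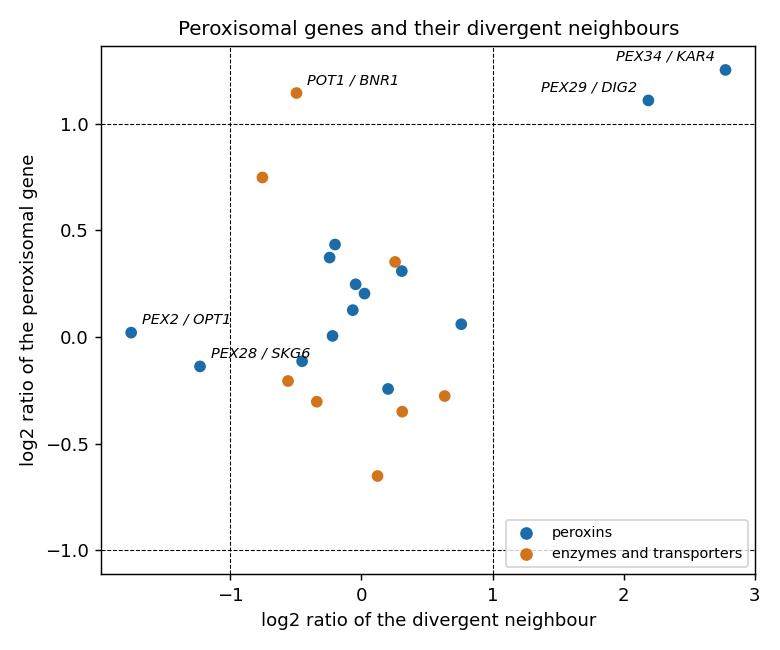
Log2 ratio of 22 peroxisomal genes (vertical axis) against the log2 ratio of the gene that lies back to back with each on the opposite strand (horizontal axis), both alpha factor over mock, with dashed lines at 2-fold. PEX34 with KAR4 and PEX29 with DIG2 are the pairs in which both genes are 2-fold or more higher, while PEX2 with OPT1 and PEX28 with SKG6 lie near 0 on the vertical axis.

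Other genes of the peroxisome and its pathways were taken as 4 lists with 34 measured genes. Of these, 3 were 2-fold or more higher and 0 were lower, where 5.51% and 3.78% of all genes above background were, so the count of higher genes is near that of all genes. At 1.5-fold, 7 were higher and 1 was lower, where 12.1% and 10.7% of all genes were. Their median log2 ratio was 0.18, against -0.03 over all genes, and 24 had a ratio above 1, where 45.8% of all genes did. The 3 past 2-fold were among 16 genes of other matrix proteins and fatty acid entry. PNC1, the nicotinamidase, was at 12.97 with alpha factor and 11.47 in the mock array, 2.82-fold higher. GPD1, the glycerol-phosphate dehydrogenase with which Pnc1 is imported through Pex7 and Pex21, was at 13.98 with alpha factor and 12.53 in the mock array, 2.72-fold higher. LYS1, a lysine biosynthesis enzyme of the matrix, was at 10.81 with alpha factor and 9.79 in the mock array, 2.03-fold higher. PNC1 and GPD1 are also known as stress-induced genes, and neither is an enzyme of beta-oxidation. The lowest ratio of that list was that of LPX1, a peroxisomal lipase gene, with a log2 ratio of -0.76.

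Of 4 regulators of the oleate response, none passed 2-fold, and their median log2 ratio was 0.27. ADR1, the activator that glucose represses, was at 9.82 with alpha factor and 8.90 in the mock array, a log2 ratio of 0.93. PIP2 and OAF1, whose products bind together to the oleate response element, had log2 ratios of 0.32 and -0.25. Of 7 genes of inheritance and division, none passed 2-fold, and their median log2 ratio was 0.05, with MDV1 lowest at -0.37 and FIS1 highest at 0.34. INP2, the peroxisomal receptor for the myosin that carries peroxisomes into the bud, had 0.14, and VPS1, the dynamin of peroxisome division, had -0.03. Of 7 genes of the glyoxylate cycle and the carnitine shuttle, 6 had a ratio above 1, where 45.8% of all genes above background did. None of the 7 passed 2-fold, and their median log2 ratio was 0.41. Over all genes above background, 5.51% were 2-fold or more higher and 3.78% lower. Lists of 4 or 7 genes with none past 2-fold are near those shares. CIT2, the peroxisomal citrate synthase, was at 13.04 with alpha factor and 12.31 in the mock array, and the lowest ratio was that of YAT1, an acetylcarnitine transferase, with a log2 ratio of -0.41.

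**Figure D5:**
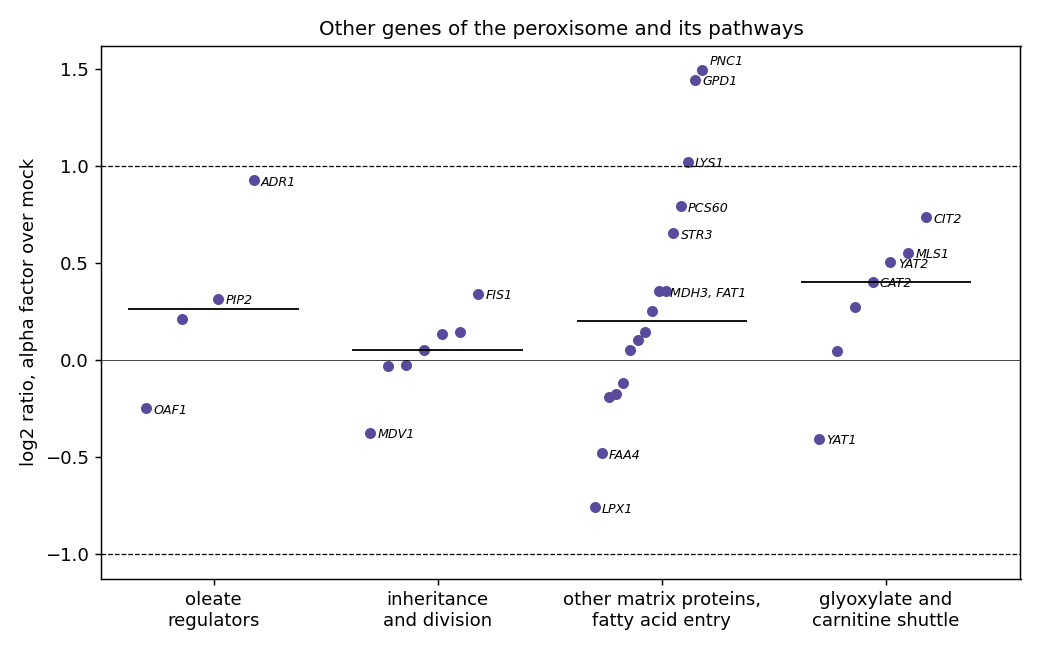
Log2 ratio of alpha factor over mock (vertical axis) for 34 genes in 4 lists (points, with list medians as lines), with dashed lines at 2-fold and names beside most genes with a log2 ratio past 0.3 in size. PNC1, GPD1 and LYS1 are the points above the upper dashed line, and no point lies below the lower one.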

How the data were processed

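The deposited table gives 10928 probe sets in 2 samples as log2 expression values, which the authors made with the affy package of Bioconductor, per the submitters' processing notes and the labels. For the version, background correction, normalization and summary, the settings were not given in the sources used here. The sorted columns differed by at most 0.092. Per the labels' protocols, biotin-labelled total RNA was hybridised. Groups were taken from the titles. The description field was not used, since both samples carry the same one.

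Probe sets were named through the platform annotation, and gene IDs were looked up in RefSeq's table for assembly R64. Of them, 5498 named 1 S. cerevisiae gene, 1746 an S. pombe gene, and 3684 none or several. Probe sets of 1 gene were averaged, and each of the 39 genes had 1. Neighbours were protein-coding genes adjacent in that table, with strand taken from the systematic name, and no coordinates are given because no build is named for the array. No pseudocount or filter was applied beside the background level. All members, the 4 lists and the mating-type markers are named or counted by a rule chosen with earlier results of these data known. A bound sets the brighter value against the background level of the other array. It has no error and is not a proven minimum change. The code that makes the calls was checked on simulated data, with planted changes larger than the 2-fold rule in genes well above background. The noise there was the SD of the S. pombe ratios. That check does not cover dim genes or the spread between cultures, so it gives no error for a call. Protein and promoter sequences were not analysed here. Alternatives were centring, quantile normalization, a loess curve, the brightest probe set, probe sets with shared endings left out, other background levels, a pseudocount of 32 and other fold rules. Python 3.11.15, numpy 2.4.6, pandas 2.3.3, statsmodels 0.14.6 and matplotlib 3.10.9 were used.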

Additional observations from a re-analysis of the deposited data

How the results depend on the processing

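PEX34 and PEX29 were 2-fold or more higher under every alternative except a 4-fold rule. Under a 1.5-fold rule 5 of the 39 genes were higher and 1 was lower, 6 in all, and of the 34 listed genes 7 were higher and 1 was lower, where 12.1% of all genes were higher and 10.7% lower. Under a 4-fold rule, 0 of either set were higher, and 0 had a higher divergent neighbour with it. POT1 missed 2-fold with a pseudocount of 32, at a log2 ratio of 0.75, and when values below background were raised to it, an alternative chosen after seeing the data. PEX18 passed 2-fold after removal of a loess curve, which made 4 higher genes, and was at 0.53 with the pseudocount, under which LYS1 also missed 2-fold. The pseudocount lowers ratios of dim genes by construction. The difference between the class medians stayed between 0.22 and 0.26 over the other alternatives. None of the log2 ratios of called genes changed sign. No paired analysis was possible because there is 1 array per condition. With 1 array each, and no detection calls, ratios of genes near background carry the least weight.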
